A study of Mus musculus with 6 samples.

Results

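The genes described here encode the cytosolic sensors of DNA and RNA with the adaptors, kinases and nuclease next to them. They were chosen by name from the deposited table: Mb21d1 (cGAS), Tmem173 (STING), Ddx58 (RIG-I), Ifih1 (MDA5), Dhx58 (LGP2), Mavs, Tbk1, Ikbke (IKK epsilon) and Trex1. All 9 were found among 24972 gene rows, and all 9 passed the minimum mean of 10 normalized counts that left 12477 genes for testing. RNA came from ventricular myocytes of MX1gfp mice, a reporter strain in which the interferon-induced gene Mx1 carries green fluorescent protein, and every animal of both groups had this genotype. The 3 vehicle mice received 100 microlitres of phosphate-buffered saline into the peritoneum, and the 3 doxorubicin mice received the same volume with the drug at 25 mg per kg body weight. Hearts were digested with collagenase 48 hours later, and myocytes were collected by settling under gravity, which enriches but does not sort them. The labels give no age and no sex, and name no batch. Doxorubicin is an anthracycline that poisons topoisomerase II, and the comparison asks whether the machinery that detects misplaced nucleic acid differs in the heart after the drug.

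Cells carry receptors in the cytosol that recognise nucleic acid where it should not be. cGAS binds double-stranded DNA, including DNA released from damaged nuclei or mitochondria, and makes a cyclic dinucleotide that activates STING on the endoplasmic reticulum. RIG-I and MDA5 bind double-stranded RNA and signal through MAVS on the outer mitochondrial membrane, LGP2 modulates them, and Trex1 degrades cytosolic DNA before it can be sensed. Both branches meet at the kinases TBK1 and IKK epsilon, which phosphorylate the transcription factor IRF3 and so switch on type I interferon, and several of these genes are themselves induced by interferon through the interferon-stimulated response element.

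That element was looked for, on both strands, as GAAA followed after any 2 bases by a further GAAA, in the RefSeq window (GRCm38.p6) from 250 bases before to 50 after each start site. Overlapping matches were allowed, and 3.44% of all 32851 windows held it. A window was found for 7 of the 9 genes, Dhx58 and Tmem173 being the others. Of these 7, 2 held a match, Ddx58 and Ifih1. The matches are shown with those of Oas1a and Cxcl10, 2 of the 9 tested genes with a match in a wider list of sensing genes. Ddx60, Eif2ak2, Oas3, Ifi203, Ifi205, Ddost and Tomm70a also hold a match and are not shown. So do the interferon genes Ifna1, Ifna2, Ifna4 and Ifna5, which were not detected. Capitals mark the match within 30 bases, written along the gene's strand.
Ddx58 (chr4:40239804-40239833, minus strand, GRCm38.p6): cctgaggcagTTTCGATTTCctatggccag
Ifih1 (chr2:62646206-62646235, minus strand, GRCm38.p6): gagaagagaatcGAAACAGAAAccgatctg
Oas1a (chr5:120907526-120907555, minus strand, GRCm38.p6): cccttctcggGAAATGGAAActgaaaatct
Cxcl10 (chr5:92349083-92349112, minus strand, GRCm38.p6): tcacgctttgGAAAGTGAAActtacctcac
The Ddx58 match is the reverse complement of the motif and begins at base 3 after the start site, and the Ifih1 match begins at base 33. The bases after the start site matched a GENCODE M21 transcript for Ddx58, Oas1a and Cxcl10 but not for Ifih1. The position of the Ifih1 match from its start is therefore less certain. Oas1a holds a second match that overlaps the one shown. The windows of Mb21d1, Mavs, Tbk1, Ikbke and Trex1 held no match to these letters. Neither the gamma-activated site TTCNNNGAA nor the p53 half-site was matched in any of the 7 genes, and the kappaB consensus was matched in 1 of the 2 windows of Trex1. In all windows these motifs occurred in 8.3%, 8.36% and 8.46% respectively. A match describes letters only and does not show that a factor binds there.

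The libraries were compared before the genes. Values for the 3 libraries of a group are given throughout in the order of replicates 1 to 3. The deposited values summed to between 5410780 and 7500390 per library. The spacing of the low values gave estimates of about 7720000 to 11300000 reads per vehicle library but only 3660000 to 6190000 per doxorubicin library, so depth and treatment cannot be told apart. The 13 cardiomyocyte markers were all present and summed to between 776900 and 944700 in the vehicle libraries, against 700900, 241400 and 201300 after doxorubicin. The 10 macrophage markers summed to between 2515 and 2723 with vehicle and to 4122, 6630 and 15030 in the doxorubicin libraries, and 9 of the 10 had a positive log2 difference. The 7 neutrophil markers summed to between 11.2 and 21.7 and to 54.0, 545 and 428, with Ly6g and Ngp at 0 in all vehicle libraries. The 10 endothelial markers summed to between 17310 and 22600 with vehicle and to between 28760 and 38300 after doxorubicin. The 8 fibroblast markers summed to between 6579 and 8536 and to 9090, 24060 and 17260. Of the 8, 7 were higher and 4 of them without overlap, against 19.2% of all genes tested. The sums of the mural markers overlapped between groups, and so did those of the atrial, lymphocyte and erythroid markers. Doxorubicin replicate 1 was the highest library for the last of these lists. The atrial sums were 456 to 526 with vehicle and 1426, 368 and 692 after doxorubicin. The erythroid sums were 1211 to 2104 and then 9027, 250 and 421, and the lymphocyte sums 17.1 to 31.4 and then 67.1, 6.02 and 10.5. Macrophages, neutrophils, endothelial cells and fibroblasts also express nucleic acid sensors. The part of these markers in the results below was not tested, and in RNA from bulk cells fewer cells of a type and less RNA per cell cannot be told apart.

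Of the 9 genes, 7 were higher and 2 lower after doxorubicin, with a median log2 difference of 0.56 on the log2(value + 1) scale, against a median of -0.0046 over all genes tested. The RNA sensors and both kinases were higher and Mavs was lower, each with all 3 doxorubicin values on the same side of all 3 vehicle values. No gene passed limma's test at a Benjamini-Hochberg adjusted p of 0.05, neither among the 9 nor among all 12477 (0% higher and 0% lower). At an unadjusted p under 0.05 limma gave 5 of the 9 as higher and 1 as lower, where 16.7% and 19.3% of all genes were. The groups did not overlap in 5 higher members, against 19.2% of all genes, and in 1 lower member, against 22.6%. Without doxorubicin replicate 1, whose cardiomyocyte marker sum lay nearest to the vehicle libraries, limma called 5 members higher and 1 lower (19.3% and 21.8% of all genes). With libraries weighted by their agreement, which gave this replicate a weight of 0.277, the lowest of the 6, it called 3 members higher and 1 lower (15.7% and 18.6% of all genes).

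**Figure D1:**
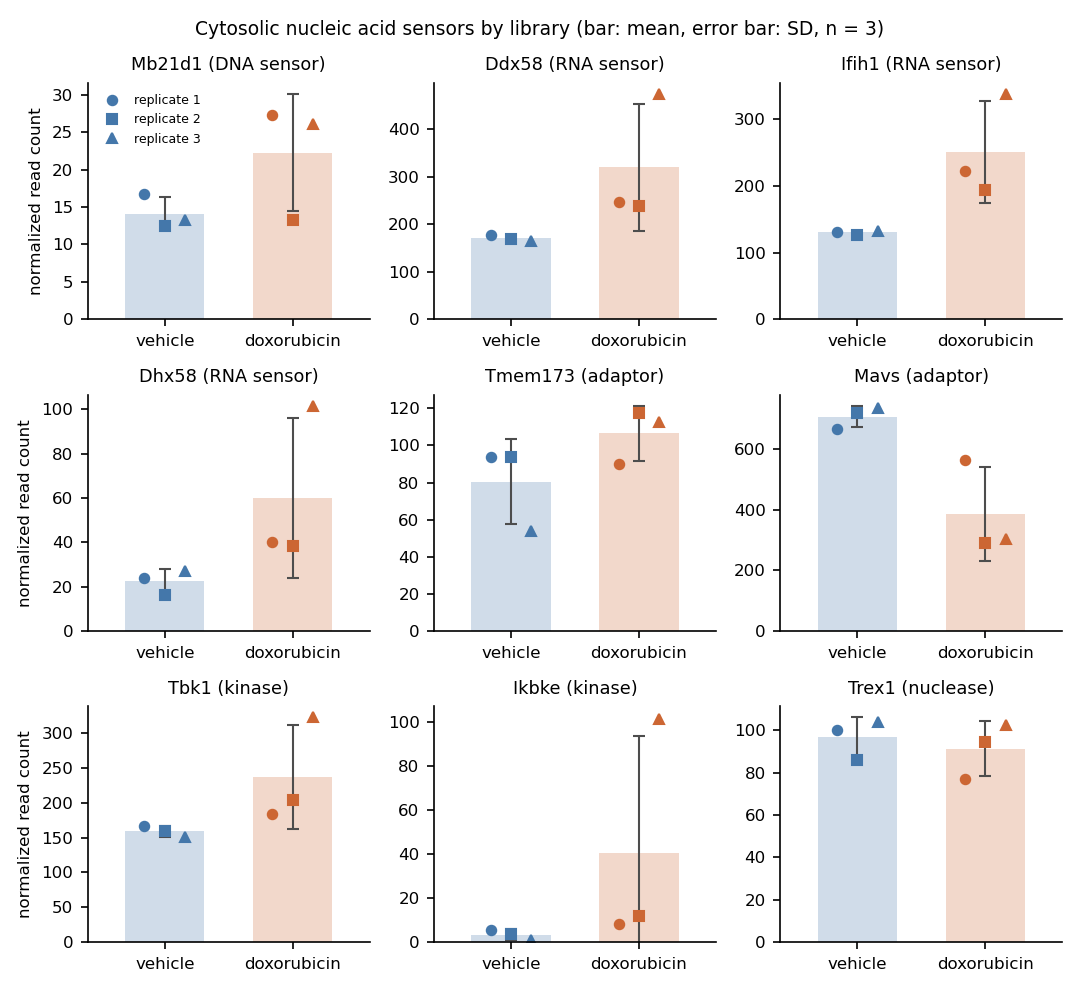
Normalized read counts of the 9 sensor genes, 1 panel each, with the vehicle libraries on the left and the doxorubicin libraries on the right; points are libraries, bars are means and error bars are SD (n = 3). Doxorubicin replicate 3 is the highest library for Ddx58, Ifih1, Dhx58, Tbk1 and Ikbke, and Mavs is lower in all 3 doxorubicin libraries.

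The RNA sensors were compared first. Ddx58 (chromosome 4, 40203777 to 40239825, GRCm38.p6) encodes RIG-I, which recognises short double-stranded RNA with a 5′ triphosphate. It had 177, 169 and 165 normalized counts after vehicle and 247, 238 and 474 after doxorubicin. The vehicle values lay close together and every doxorubicin value lay above them, with replicate 3 apart from the others. The means were 170.5 ± 6.18 and 319.7 ± 133 (SD, n = 3 in each group), a log2 difference of 0.83 (SE 0.27, limma adjusted p 0.0878). Leaving out doxorubicin replicate 3 reduced it to 0.51.

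Ifih1 (chromosome 2, 62595618 to 62646255) encodes MDA5, which recognises long double-stranded RNA. Its values were 131, 127 and 133 in the vehicle libraries and 222, 193 and 337 after doxorubicin. The vehicle libraries were nearly equal, and the lowest doxorubicin value was well above them. The log2 difference was 0.90 (SE 0.22, 95% interval 0.39 to 1.41, limma adjusted p 0.0859), the smallest unadjusted p of the 9 genes. It was 0.66 without doxorubicin replicate 3.

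Dhx58 (chromosome 11, 100694884 to 100704271) encodes LGP2, a relative of RIG-I and MDA5 that lacks their signalling domains. It had 24.1, 16.3 and 26.9 normalized counts after vehicle and 40.1, 38.4 and 102 after doxorubicin. Doxorubicin replicates 1 and 2 were alike and replicate 3 was the highest. The log2 difference was 1.26 (SE 0.42, limma adjusted p 0.0903), and 0.81 without replicate 3. These values rest on about 17 to 38 reads in a vehicle library and 32 to 69 in a doxorubicin library, so counting error is a larger part of them than for Ddx58 or Ifih1. An antisense gene, Dhx58os, shares 4.31% of the exonic bases, and whether the counting used strand is not given in the sources used here.

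Mavs (chromosome 2, 131234063 to 131248025), the adaptor on mitochondria through which RIG-I and MDA5 signal, went the other way from its receptors. It had 669, 719.9 and 737 normalized counts after vehicle and 565, 291 and 302 after doxorubicin. All doxorubicin values were below all vehicle values, replicate 1 by the least. The means were 709 ± 35.5 and 386 ± 155, a log2 difference of -0.94 (SE 0.26, 95% interval -1.54 to -0.34, limma adjusted p 0.0859). Without doxorubicin replicate 1 it was -1.25, with a limma adjusted p of 0.000484, in a fit that called 21.8% of all genes lower. With any other library left out, the limma adjusted p was 0.166 to 0.256. The cardiomyocyte markers were lower in the same libraries, with a median log2 difference of -1.49. In 9 of 13 the groups did not overlap, against 22.6% of all genes that were lower in this way.

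A ratio of 2 genes within a library does not depend on how libraries were scaled, apart from the added pseudocount of 1. The log2 ratio of Ddx58 to Mavs, taken on values + 1, was -1.91, -2.09 and -2.15 in the vehicle libraries and -1.19, -0.29 and 0.65 after doxorubicin. Per kb of the longest coding transcript, Ddx58 at 122 normalized counts exceeded Mavs at 98.9 in doxorubicin replicate 3 and in no other library. The difference between groups was 1.77. It was 1.84 for Ifih1 to Mavs and 1.38 for Tmem173 to Mavs, and none of these 3 ratios overlapped between groups. An exact two-sided permutation test gave p = 0.1 for each, the smallest that 3 libraries against 3 allow (0.225 adjusted over the 9 ratios computed). For Ddx58 and Ifih1 to Mavs this outcome was fixed beforehand, since both genes were higher and Mavs lower without overlap. Their p-values therefore add no evidence to the results of the single genes. Tmem173 by itself overlapped between groups, so its ratio was not fixed in this way. All 9 ratios were picked with the values of the genes already known. The log2 ratio of Mavs to Vdac1, which encodes a channel of the same membrane, was -3.37 ± 0.074 in the vehicle libraries and -3.49 ± 0.36 after doxorubicin, and these groups overlapped (exact permutation p = 0.9). That of Mavs to Actc1, the cardiac actin gene among the cardiomyocyte markers, was -7.16 ± 0.20 and -6.00 ± 0.97, also with overlapping groups (difference 1.16, exact permutation p = 0.2).

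In the DNA branch the groups overlapped for all 3 genes. Mb21d1 (chromosome 9, 78430518 to 78443237) encodes cGAS, the enzyme that makes the second messenger cGAMP on binding DNA. It had 16.7, 12.5 and 13.3 normalized counts after vehicle and 27.3, 13.3 and 26.1 after doxorubicin. Doxorubicin replicates 1 and 3 were above every vehicle library, whereas replicate 2 lay within the vehicle range. The log2 difference was 0.56 (SE 0.39, 95% interval -0.35 to 1.48, limma adjusted p 0.322). It rests on about 11 to 26 reads per library, and at this depth a difference of the size seen in Ddx58 would lie within that interval. The difference was 0.88 without doxorubicin replicate 2 and 0.85 with equal totals, but 0.34 with library weights and 0.33 with quantile normalization. Equal totals moved the median of all genes to 0.29. The antisense gene Gm8093 covers 4.87% of the exonic bases of Mb21d1.

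Tmem173 (chromosome 18, 35733678 to 35740554) encodes STING, the receptor for cGAMP. Its values were 93.6, 93.9 and 54.1 in the vehicle libraries and 89.8, 118 and 113 after doxorubicin. The low vehicle replicate 3 widened the vehicle group, and doxorubicin replicate 1 lay below the other 2 vehicle libraries. The log2 difference was 0.43 (SE 0.26, 95% interval -0.16 to 1.03, limma adjusted p 0.25), and it was 0.17 without vehicle replicate 3.

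Trex1 (chromosome 9, 109057932 to 109059723), the exonuclease that clears cytosolic DNA upstream of cGAS, had 100.1, 86.0 and 104 normalized counts after vehicle and 77.1, 94.4 and 102 after doxorubicin. The groups overlapped in part, with doxorubicin replicate 1 below every vehicle value and vehicle replicate 3 above every doxorubicin value. The log2 difference was -0.09 (SE 0.18, 95% interval -0.51 to 0.34, limma adjusted p 0.75). Its sign was positive with libraries scaled to equal totals, at 0.21, and without doxorubicin replicate 1, at 0.03. Equal totals moved the median of all genes to 0.29, above the value of Trex1. All exonic bases of Trex1 also lie in exons of Atrip on the same strand in GENCODE M21, so its reads could have been split between them. Atrip itself had 15.3 to 28.0 normalized counts after vehicle and 0 to 32.5 after doxorubicin.

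The kinases differed in level. Tbk1 (chromosome 10, 121546455 to 121586794), the kinase that STING and MAVS both engage, had 167, 159 and 151 normalized counts after vehicle and 184, 204 and 322 after doxorubicin. The groups did not overlap, but doxorubicin replicate 1 was only slightly above the highest vehicle library. The log2 difference was 0.53 (SE 0.22, 95% interval 0.0066 to 1.05, limma adjusted p 0.136), and 0.28 without replicate 3.

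Ikbke (chromosome 1, 131254600 to 131279601) encodes IKK epsilon, the inducible relative of TBK1. It had 5.70, 3.83 and 0.870 normalized counts after vehicle and 8.44, 12.0 and 102 after doxorubicin. The difference was carried mostly by replicate 3. Its log2 difference was the largest of the 9 genes at 2.57 (SE 0.99, 95% interval 0.27 to 4.87, limma adjusted p 0.112), and it was 1.50 without replicate 3 and 3.22 without replicate 1. The values correspond to about 9, 4 and 1 reads in the vehicle libraries and 8, 10 and 69 after doxorubicin, so outside replicate 3 the gene was read at most about 10 times in a library. Of the 10 macrophage markers, 8 were also highest in doxorubicin replicate 3. Adgre1 had 1818 normalized counts there against 95.1 to 173 in the other 5 libraries, and C1qa had 1130 against 1122 in replicate 2. The exceptions were Mrc1, with 670 in replicate 3 and 778 in replicate 2, and Cx3cr1, with 42.6 in replicate 3 and 49.1 to 72.8 in the vehicle libraries. The part of macrophage RNA in the Ikbke value was not tested.

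**Figure D2:**
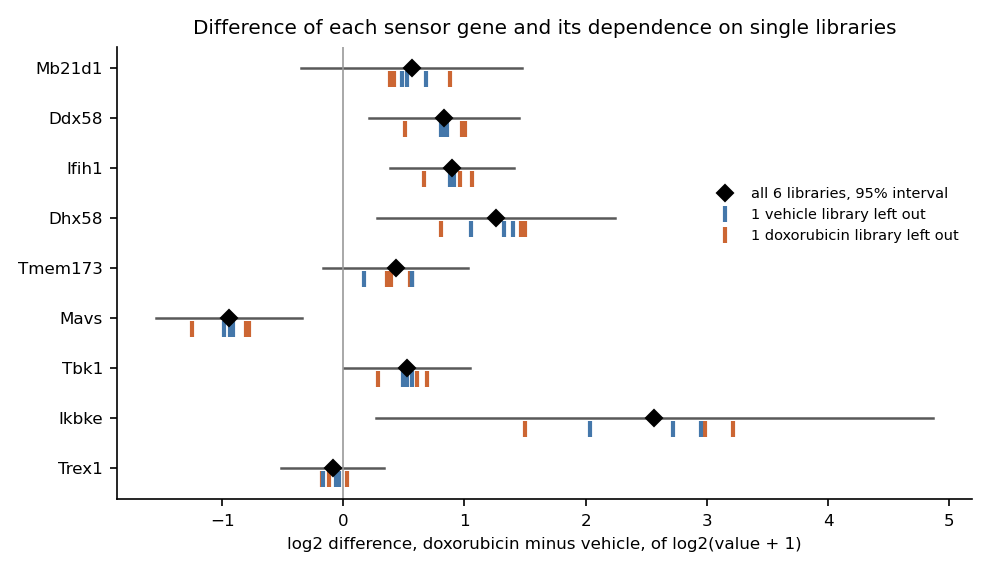
Log2 difference of each sensor gene, doxorubicin minus vehicle, with all 6 libraries (diamond, 95% interval from limma) and with 1 library left out (ticks, coloured by the group of the library left out). The ticks keep the sign of the diamond for 8 genes, Trex1 reaching from -0.17 to 0.03, and Ikbke has the widest interval. For Ddx58, Ifih1, Dhx58, Mavs, Tbk1 and Ikbke the sign was fixed beforehand, because their groups do not overlap.

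The doxorubicin libraries did not move the 9 genes alike. Relative to the vehicle mean, replicate 3 had the largest log2 difference for Ddx58 (1.47), Ifih1 (1.37), Dhx58 (2.16), Tbk1 (1.01) and Ikbke (4.71). Replicate 1 had 0.53, 0.76, 0.84, 0.21 and 1.27 for the same genes, and replicate 2 had 0.48, 0.57, 0.78, 0.36 and 1.73. For Mavs the order was different, with -0.33 in replicate 1, -1.28 in replicate 2 and -1.23 in replicate 3. The RNA sensors were therefore about as high in replicate 1 as in replicate 2, while Mavs was nearest to the vehicle level in replicate 1. The summed macrophage markers were highest in replicate 3, and the summed cardiomyocyte markers were lower in replicates 2 and 3 than in replicate 1.

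**Figure D3:**
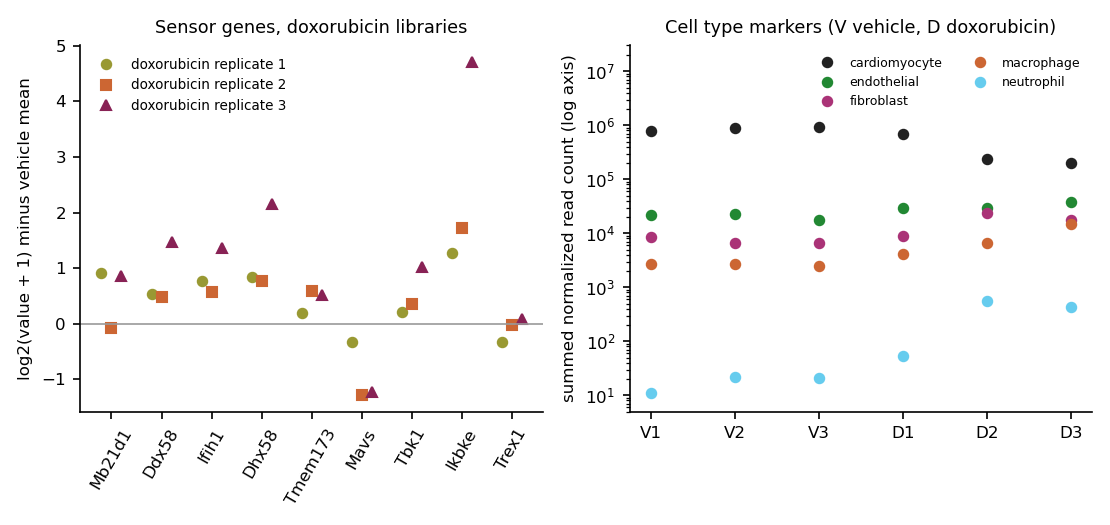
Left, the log2(value + 1) of each sensor gene in each doxorubicin library minus the mean of the vehicle libraries (marker shape and colour: replicate). Right, the summed normalized read counts of 5 lists of cell type markers in each library on a log axis. Ikbke reaches 4.71 in replicate 3, where the macrophage sum is 15030, and Mavs lies near -1.2 in replicates 2 and 3, where the cardiomyocyte sums are lowest.

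By Xist and Y-linked transcripts the libraries fell into classes that cut across treatment, with vehicle replicates 1 and 2 and doxorubicin replicate 2 in the Y-linked class and vehicle replicate 3 and doxorubicin replicates 1 and 3 in the Xist class. Within the Y-linked class the log2 differences of Ddx58, Ifih1, Dhx58 and Mavs were 0.46, 0.58, 0.92 and -1.25, and within the Xist class 1.04, 1.04, 1.22 and -0.83. Those of Tbk1 and Ikbke were 0.32 and 1.19 in the former and 0.68 and 4.06 in the latter. These 6 genes kept their direction in both classes, an outcome fixed beforehand because their groups do not overlap. It therefore adds no evidence. Mb21d1 was -0.11 in the Y-linked class and 0.96 in the Xist class, Tmem173 0.32 and 0.88, and Trex1 0.02 and -0.22. Each class has a single library in 1 of its groups, and no test was made within a class. With the class as a covariate over all 6 libraries, limma gave 0.75 for Ddx58 (adjusted p 0.133), 0.81 for Ifih1 (0.105) and -1.04 for Mavs (0.105), and called none of the 9 genes.

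Levels were compared between genes per kb of the longest coding transcript. In the vehicle libraries Mavs was highest at 232 ± 11.6 normalized counts per kb (SD, n = 3), followed by Trex1 at 89.2 ± 8.66, Tbk1 at 52.6 ± 2.64, Ddx58 at 44.0 ± 1.60, Tmem173 at 35.0 ± 9.97 and Ifih1 at 23.8 ± 0.54. Dhx58 at 9.31 ± 2.29, Mb21d1 at 3.49 ± 0.55 and Ikbke at 1.07 ± 0.75 were the lowest. Among neighbours in this order, the values overlapped between libraries only for Tmem173 and Ifih1. The DNA sensor cGAS was thus among the lowest of the 9 genes in the vehicle libraries, below all 3 RNA sensors. After doxorubicin Mavs had the highest mean at 126 ± 50.6 per kb and Mb21d1 the lowest at 5.49 ± 1.93. These ends of the order did not hold in every library, since Ddx58 at 122 and Tbk1 at 107 exceeded Mavs at 98.9 in replicate 3, and Ikbke at 2.60 lay below Mb21d1 at 6.75 in replicate 1. Of the 8 neighbouring pairs in the order after doxorubicin, 6 overlapped, including Ddx58 at 82.5 ± 34.4 with Trex1 at 84.2 ± 11.9. With the median transcript length in place of the longest, 4 of the 9 genes took another rank in the vehicle order, Tbk1 moving above Trex1 and Tmem173 above Ddx58, and after doxorubicin the mean of Tbk1 at 136.5 lay above that of Mavs at 130.3.

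**Figure D4:**
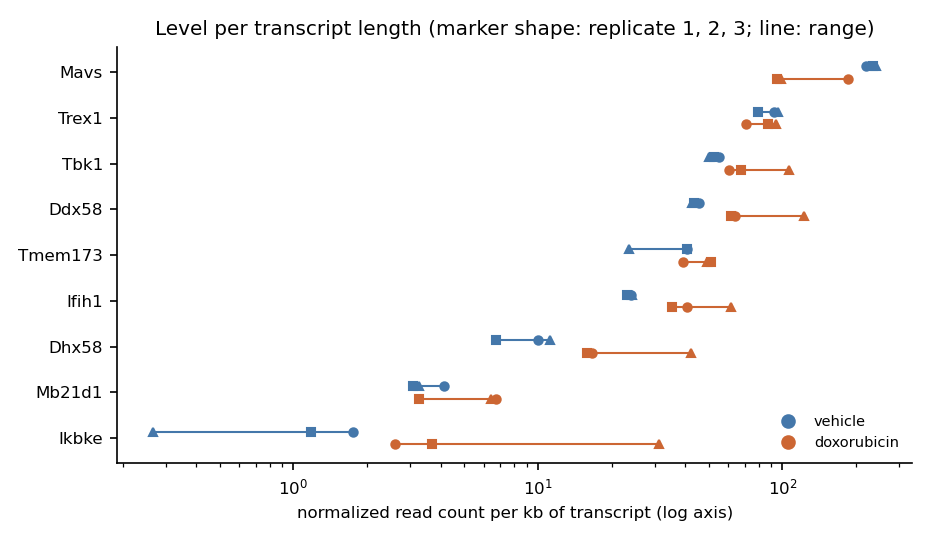
Normalized read counts per kb of the longest coding transcript (log axis) for the 9 sensor genes, ordered by the vehicle mean, with 1 point per library and a line over the range of each group. Mavs has the highest mean in both groups, although Ddx58 and Tbk1 lie above it in doxorubicin replicate 3, and Ikbke spans the widest range after doxorubicin, from 2.60 to 31.3.

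The genes whose 6 values, taken relative to the vehicle mean on the log2 scale, lay nearest to those of each sensor were sought among 10018 genes with a mean of at least 50. The measure is the root-mean-square difference over the 6 libraries. For Ddx58 the nearest were Stim2 (0.053) and Trim12c (0.058), and for Ifih1 P2rx7 (0.073) and Ripply3 (0.080). Dhx58 lay nearest to Rtp4 (0.17) and Cotl1 (0.20). For Mavs they were Letm1 and Dnaja3 (0.056 each), and for Tbk1 Plekhg5 (0.046) and Nck1 (0.060). Mb21d1 lay nearest to Emcn (0.13) and Tm4sf1 (0.15), Tmem173 to Unc45a (0.10) and Prr14 (0.11), and Trex1 to Pprc1 (0.058) and Aar2 (0.063). Ikbke had no close neighbour, the nearest being Ptges (0.49) and Msr1 (0.58).

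Other genes of cytosolic nucleic acid sensing were taken from a list of 122, of which 120 were in the table and 110 were tested. Of these, 56 were higher and 54 lower after doxorubicin, with a median log2 difference of 0.013, and limma called 0 at an adjusted p under 0.05, with 22 higher and 15 lower at an unadjusted p under 0.05, against 16.7% and 19.3% of all genes. The groups did not overlap in 26 higher genes and 28 lower genes, against 19.2% and 22.6% of all genes. With libraries scaled to equal totals, which moved the median of all genes to 0.29, 79 were higher.

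Among 24 tested co-factors and regulators of RNA sensing, 15 were higher and 9 lower, with groups that did not overlap in 7 and 3, against 19.2% and 22.6% of all genes. Trim25, the ubiquitin ligase that activates RIG-I, had 323, 326 and 295 normalized counts after vehicle and 436, 694 and 952 after doxorubicin. Every doxorubicin library was above every vehicle library, and the log2 difference was 1.07 (SE 0.27, limma adjusted p 0.0859). Rnf125, a ligase that marks RIG-I and MAVS for degradation, was also higher, with 168 to 192 in the vehicle libraries and 268, 453 and 351 after doxorubicin (log2 difference 0.98). Oas1a and Oas2, which make the activator of RNase L on binding double-stranded RNA, had log2 differences of 1.43 and 1.32, and replicate 3 was the highest for both, at 266 and 524. Without that replicate the differences were 0.76 and 0.84.

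The 23 other DNA sensors and cGAS regulators were divided, 10 higher and 13 lower, with groups that did not overlap in 2 higher and 6 lower genes (19.2% and 22.6% of all genes). Zbp1, a sensor of left-handed nucleic acid, had 4.61 to 7.93 normalized counts after vehicle and 24.0, 56.6 and 208 after doxorubicin. All doxorubicin values were above the vehicle range (log2 difference 3.16, SE 0.72, limma adjusted p 0.0859). Ifi204, an AIM2-like receptor for DNA, had 37.6 to 44.5 and then 75.4, 332 and 392, a log2 difference of 2.35. Aim2, which assembles an inflammasome on DNA, had 6.75 to 11.0 and then 7.33, 18.0 and 28.8, and its groups overlapped (log2 difference 0.83, limma adjusted p 0.307). Its difference was 0.42 without doxorubicin replicate 3 and also with quantile normalization. Without doxorubicin replicate 1 it was 1.34, which limma called at an adjusted p of 0.0482, in a fit that called 19.3% of all genes higher. The counts of Aim2 are about as low as those of Mb21d1, so few reads lie behind these values. The 6 genes that were lower without overlap were Tfam, Xrcc6, G3bp1, Polr3b, Polr3c and Polr3f, named here after their values were seen. Tfam, which packages mitochondrial DNA, had 356 to 421 normalized counts after vehicle and 308, 189 and 210.2 after doxorubicin (log2 difference -0.77), and the other 5 had differences of -0.59 to -0.20.

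Regulators of both adaptors were mixed. Of 20 genes of STING trafficking and regulation, 8 were higher and 12 lower. The groups did not overlap in 4 and 6 of them, against 19.2% and 22.6% of all genes. Stim1, which holds STING at the endoplasmic reticulum, had 199 to 230.5 normalized counts and then 277, 514 and 445 after doxorubicin, and Lrrc8a, a channel subunit through which cGAMP can pass, had 432 to 548 and then 554, 1294 and 1180.4. Of 14 MAVS regulators, 7 were higher and 7 lower, and the groups did not overlap in 2 higher and 7 lower genes, against 19.2% and 22.6% of all genes. Mfn1, a mitofusin of the outer mitochondrial membrane, had 2865 to 3682 and then 2513, 1160.0 and 1036, and Mfn2 had 7746 to 9400.2 and then 6307, 4432 and 2936. Their log2 differences were -1.16 and -0.93, and that of Mfn2 was -0.47 with quantile normalization.

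Downstream of the sensors, Irf3, the transcription factor phosphorylated by TBK1, had 155 to 218 normalized counts after vehicle and 207 to 259 after doxorubicin, with overlapping groups (log2 difference 0.27, SE 0.19, limma adjusted p 0.315). It was 0.11 without vehicle replicate 3 and 0.57 with equal totals, where the median of all genes was 0.29. Irf7, its interferon-induced relative, had 96.1 to 113 and then 206, 391 and 1090.1, a log2 difference of 2.06. Traf3, an adaptor between MAVS and TBK1, had 205 to 279 and then 224, 121 and 149, with overlapping groups. Of the 17 kinase adaptors and transcription factors in the list, 8 were higher and 9 lower.

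The nucleases and editing enzymes that limit sensing also went both ways, 6 of 11 tested being higher. Samhd1, which removes nucleotides and nascent DNA, had 307 to 317 normalized counts and then 366, 394 and 759, a log2 difference of 0.62 that was 0.28 without replicate 3. Adar, which edits double-stranded RNA so that MDA5 ignores it, had 205 to 234 and then 289, 327 and 499 (log2 difference 0.74, SE 0.22, limma adjusted p 0.0859). Both had groups that did not overlap. Endog, a mitochondrial nuclease, had 395 to 499 and then 345, 202 and 133, and Supv3l1, a mitochondrial RNA helicase, had 317 to 358 and then 250.3, 142 and 124. Their log2 differences were -1.05 and -1.02.

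Interferon genes, which this machinery controls, were listed at 0. Ifnb1, which encodes interferon beta, was listed at 0 in all 6 libraries, as were Ifna1, Ifna2, Ifna4, Ifna5, Ifnl2 and Ifnl3. Cxcl10, a chemokine induced by IRF3 and by interferon, had 5.12, 5.76 and 5.28 normalized counts after vehicle and 10.5, 13.2 and 64.7 after doxorubicin. The groups did not overlap, and replicate 3 was again the highest (log2 difference 1.79, SE 0.70, limma adjusted p 0.116). Without replicate 3 the difference was 1.00.

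**Figure D5:**
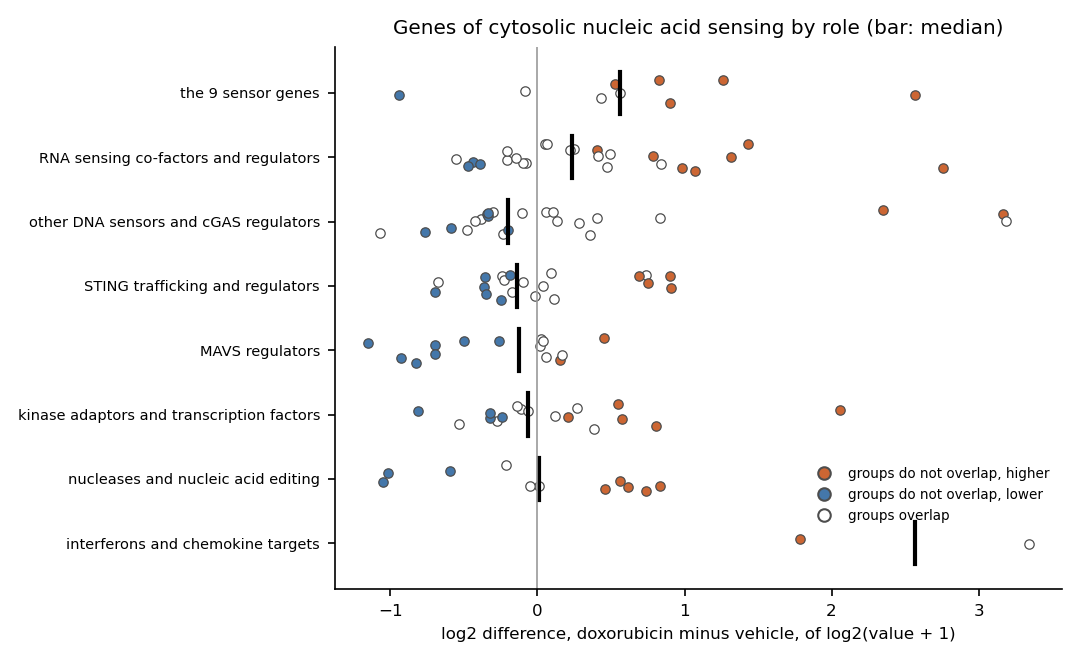
Log2 difference, doxorubicin minus vehicle, of the 9 sensor genes and of the other tested genes of cytosolic nucleic acid sensing, by role; each point is a gene, filled where the groups do not overlap, and the bar is the median. The 9 sensor genes have a median of 0.56, and 7 of the 14 MAVS regulators are lower and 2 higher with groups that do not overlap, against 22.6% and 19.2% of all genes.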

How the data were processed

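The authors deposited a signal for each gene and library, namely read counts that they had normalized, all at or above 0. Reads were aligned with STAR to mm10 (RefSeq genes) in BaseSpace applications, per the labels' design text, and STAR 2.6.1a and Salmon are named in the submitters' processing notes. The sources used here name neither the normalization nor the counting tool's settings or use of strand. Median-of-ratios factors computed from the values were 1.006 in every library, so the deposited values were already level on that scale. The median-of-ratios alternative therefore repeats the main fit and is no separate check. Values were used as deposited: log2(value + 1), genes with a mean of at least 10. The fit was limma 3.58.1 in R 4.3.3 with a mean-dependent prior, two-sided, Benjamini-Hochberg threshold 0.05. It was checked on simulated data in which both groups had a spread drawn from the vehicle libraries. Genes such as Ddx58 and Mavs spread more widely after doxorubicin, and the check does not show how the fit behaves there. All 6 libraries entered. Nothing in the labels ties animals across groups. Depth is approximate: 1 read was taken as the most common low value, and 80.3% to 92.4% of low values lay within 0.1 of a whole multiple of it, too few to recover whole reads.

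The members and lists were chosen with earlier results of these data known. Named genes were the 9 members, 10 fixed genes, the 10 pathway genes with the largest difference (mean of at least 50, groups not overlapping) and the 2 genes nearest to each member. Alternatives covered pseudocount, filter, scaling, moderation, weights, block, class and left-out libraries. Ratios within a library and within-class values were added after the data were seen. Coordinates are RefSeq GRCm38.p6, counted from 1, lengths GENCODE M21. Figures used matplotlib 3.10.9 in Python 3.11.15.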

Additional observations from a re-analysis of the deposited data

How the results depend on the processing

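The number of genes called rested on doxorubicin replicate 1. Leaving out each of the 6 libraries in turn, 0 to 2409 genes were higher and 0 to 2718 lower, with 0 to 5 members higher and 0 to 1 lower, and only the fit without that replicate called members. Library weights gave 1954 and 2318 genes, with 3 members higher and 1 lower. The median of the members was 0.42 to 0.88 when a library was left out, and that of the pathway genes -0.027 to 0.018. The latter was -0.019 at a minimum mean of 50 and 0.31 with equal totals. At a minimum mean of 50, which removed Mb21d1, Dhx58 and Ikbke, 4 of 6 members were higher, 3 without overlap. Trex1 was 0.21 with equal totals, where the median of all genes was 0.29. It ran from -0.17 to 0.028 over left-out libraries, the latter without doxorubicin replicate 1. Median transcript lengths gave 4 members another rank. With the replicate number as a replicate block, 0 genes were called higher and 0 lower, and no call of a member changed. Same-numbered libraries had correlations of deviations of -0.13, 0.033 and -0.093, and no library correlated best with its own number. Depth limits Ikbke, Mb21d1 and Dhx58 most.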

Other observations

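Some genes of the sensing list whose counts are not given above were far apart between doxorubicin libraries. They were chosen after their values were seen. Ifi205, an AIM2-like receptor next to Ifi204, had 67.6, 43.3 and 16.1 normalized counts after vehicle and 35.6, 1457 and 739 after doxorubicin (replicates 1 to 3 in order). It was thus highest in replicate 2, where Ikbke had 12.0. Oas3, a sensor of long double-stranded RNA, had 1.27 to 3.82 in the vehicle libraries and 4.22, 13.3 and 203 after doxorubicin. Ccl5, a chemokine of antiviral responses, had 1.25 to 5.67 and then 5.22, 8.45 and 734. Polr3g, a subunit of the RNA polymerase that can turn cytosolic DNA into a ligand of RIG-I, had 29.6 to 49.8 and then 36.6, 19.2 and 10.1.

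Of 91 pathway genes with a promoter window, 13 held the interferon-stimulated response element, or 14.3%, and 9 of these were tested. Their median log2 difference was 0.84, against -0.15 for the 73 tested pathway genes without it. Over all tested genes with a window the medians were 0.24 for 371 genes with the element and -0.015 for 9434 without. Of the 9 tested pathway genes with it, 7 were higher. The groups did not overlap in 3 higher genes (Oas1a, Oas3 and Cxcl10) and 1 lower gene (Tomm70a), against 19.2% and 22.6% of all genes tested. Among the 371 tested genes with the element, they did not overlap in 110 higher and 46 lower genes. No test was made, and the list was chosen with earlier results of these data known.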
